A study of Mus musculus with 2 samples.

Results

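The genes for the proteins of the cytosolic ribosome were examined for how accessible their transcription starts were in mouse urinary bladder. Members were all GENCODE M21 protein-coding genes whose symbol begins with Rpl or Rps and goes on with a digit, with the letter a, or with p and a digit. Genes of the Rps6k kinases and names carrying -ps were left out. This gave 86 of 21938 protein-coding genes: 77 core ribosomal proteins, 8 paralogs of them, and Rps19bp1, which encodes a protein that binds the small subunit protein Rps19 and is not itself a ribosomal protein. The rule uses symbols alone and no measured value, but it was set with earlier results of these data known.

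DNase-seq cuts nuclei with the enzyme DNase I, which reaches DNA where chromatin is open, so that dense cuts mark accessible sites and short protected stretches inside them mark footprints. A single group was measured, male B6CASTF1/J mice aged 36 days, as 2 libraries of bladder, called replicate 1 and replicate 2. The descriptions name different males, but the donor label is shared, so the libraries may not be separate animals. The mice come from a cross of C57BL/6J, a laboratory strain, with CAST/EiJ, a strain derived from wild mice, with no treatment and no edited allele. The mm10 assembly used by the authors represents C57BL/6J only. Bladder tissue holds urothelium, smooth muscle, fibroblasts, vessels and immune cells, so a low peak from few cells and a low peak in every cell cannot be told apart.

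Ribosomal proteins join ribosomal RNA to form the small subunit, which decodes mRNA, and the large subunit, which joins amino acids. Each is needed in about equal amount in every growing cell, and their genes are classic examples of short, steadily expressed housekeeping genes. Many of their transcripts begin with a C followed by a run of pyrimidines, the terminal oligopyrimidine tract, through which mTOR signalling controls their translation.

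The windows below show starts at both ends of the range of peak heights. The first 4 belong to core genes among the highest, and the last belongs to the gene with the lowest mean rank. Each is written 5′ to 3′ on the gene's strand and runs from 120 bases before the RefSeq start to the first 30 bases of the gene in the GRCm38.p6 sequence given by RefSeq, whose coordinates are those of mm10. Capitals mark bases that lay inside a footprint in both libraries. The windows lie on chromosome 5 (Rplp0, chr5:115559347-115559496, plus strand), chromosome 2 (Rpl7a, chr2:26910687-26910836, plus), chromosome 17 (Rps28, chr17:33824533-33824682, minus), chromosome 11 (Rpl23, chr11:97782410-97782559, minus) and chromosome 5 again (Rpl6, chr5:121204381-121204530, plus).
Rplp0: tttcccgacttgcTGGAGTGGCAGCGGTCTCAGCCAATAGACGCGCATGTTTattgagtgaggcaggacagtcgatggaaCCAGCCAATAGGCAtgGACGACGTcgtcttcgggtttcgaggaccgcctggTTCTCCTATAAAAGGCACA
Rpl7a: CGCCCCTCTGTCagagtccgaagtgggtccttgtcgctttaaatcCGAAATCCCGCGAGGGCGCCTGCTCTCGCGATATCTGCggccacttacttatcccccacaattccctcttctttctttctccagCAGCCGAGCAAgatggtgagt
Rps28: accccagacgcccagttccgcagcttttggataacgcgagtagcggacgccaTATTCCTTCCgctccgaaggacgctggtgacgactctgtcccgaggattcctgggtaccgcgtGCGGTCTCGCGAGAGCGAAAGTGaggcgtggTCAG
Rpl23: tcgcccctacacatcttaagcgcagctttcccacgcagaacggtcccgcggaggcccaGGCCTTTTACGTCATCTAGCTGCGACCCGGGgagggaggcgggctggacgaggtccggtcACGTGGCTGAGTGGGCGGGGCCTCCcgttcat
Rpl6: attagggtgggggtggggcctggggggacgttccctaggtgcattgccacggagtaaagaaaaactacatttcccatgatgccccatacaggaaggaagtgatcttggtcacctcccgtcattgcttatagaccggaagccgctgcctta

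Of these 150-base windows, the one of Rplp0 held 80 bases in footprints of both libraries, Rpl7a 61, Rps28 37 and Rpl23 56, while Rpl6 held 0.

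Nearly every ribosomal protein gene had an accessible start. For each gene the strongest peak within 500 bases of any annotated start was taken, and its height is the signal value the authors deposited for the peak, on a scale that no header states. Both libraries had such a peak at 82 of 86 members (95.3%), beside 56.3% of all protein-coding genes. Each library alone gave the same 82, beside 57.8% and 58.6% of all genes. All 77 core genes had one. The other 4 had none in either library: Rpl3l, Rpl10l, Rpl39l and Rps27rt, all paralogs. Other ways of matching peaks to starts gave 82 members as well, while the share of all genes was 61.4% with the longer and more permissive peak list, 47.6% with the higher 50% of the peaks, 54.9% and 57.5% with windows of 250 and 1000 bases, and 51.8% with the main start alone.

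The start peaks were also high. Among the 82 members with a peak, the median height was 3.73 in replicate 1 (range 1.63 to 10.1) and 3.95 in replicate 2 (range 1.62 to 8.49), against 3.004 and 2.911 for all protein-coding genes with such a peak. Ranked among all start peaks of the same library, the median member stood at percentile 80.7 in replicate 1 and 84.2 in replicate 2 (82.5 ± 2.47, SD, n = 2), and the median of all genes with a peak at 69.3 and 70.6. In both libraries 75 of 86 members reached percentile 50 or more, beside 40.1% of all genes, 53 reached percentile 75 or more, beside 21.4% of all genes, and 22 reached percentile 90, beside 8.06%. Divided into 10 equal bins of mean percentile over all genes with a start peak, 41 of the 82 members fell in the top 3 bins and 6 in the lowest 3. The family was thus spread over most of the range and was not uniformly high. With 1 group and no second condition, these are descriptions of both libraries and carry no test.

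**Figure D1:**
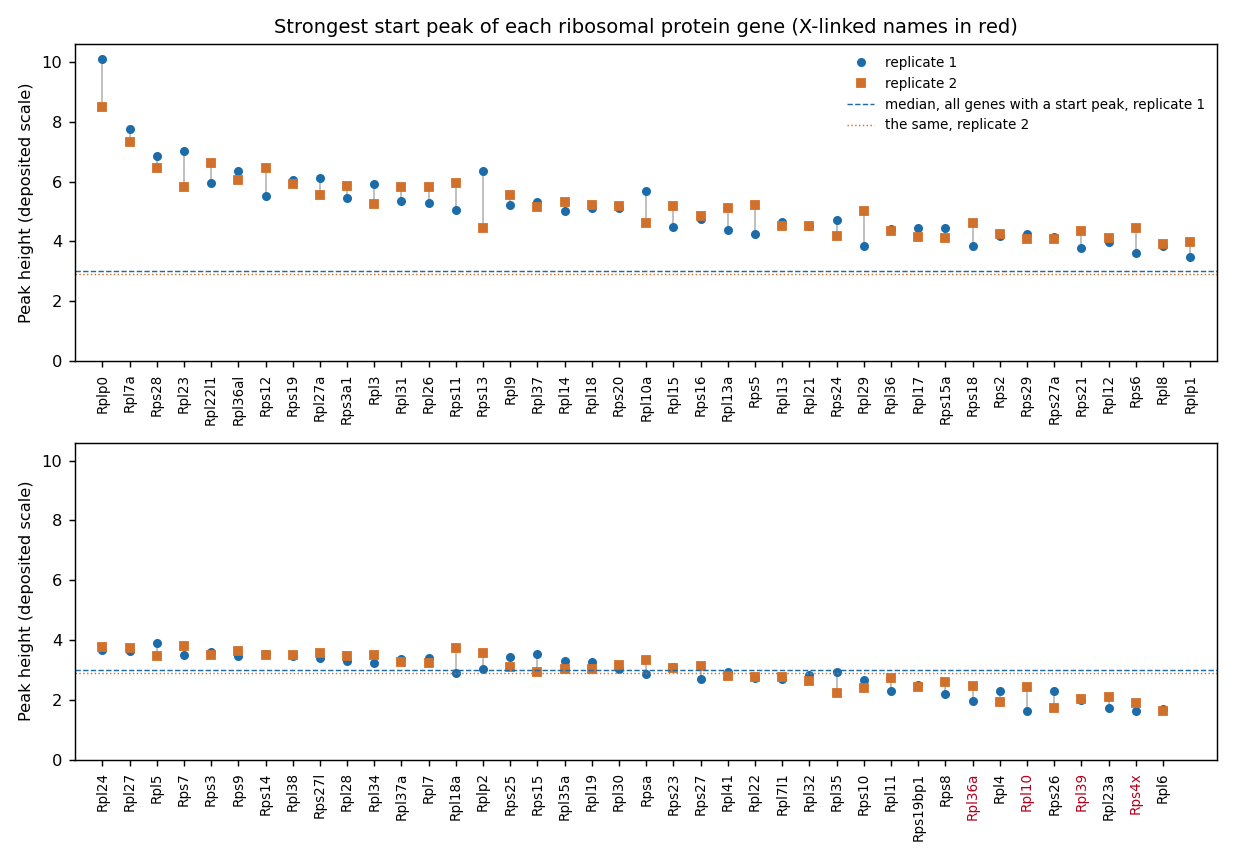
Height of the strongest start peak (vertical axis, deposited signal scale) of 81 of the 82 members with a peak in both libraries, ordered by mean height over 2 rows of panels, with circles for replicate 1, squares for replicate 2, a grey line joining them and dashed or dotted lines for the median of all protein-coding genes with a start peak. Heights run from 10.1 and 8.49 for Rplp0 down to 1.69 and 1.62 for Rpl6, and the 4 X-linked names, in red, all sit near the lower end.

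The members held their order between the libraries. Heights of the 82 members correlated with a Spearman rho of 0.942 and, after log10 transformation, a Pearson r of 0.932. These are correlations across genes, which are not independent replicates. The log2 ratio of replicate 2 to replicate 1 had a median of 0.02 and an SD of 0.19, against an SD of 0.26 over all 12341 genes. The members farthest from equal height were Rpl10 (log2 ratio 0.56), Rps13 (-0.51) and Rpl35 (-0.40). Rps13, a small subunit protein, measured 6.34 in replicate 1 and 4.44 in replicate 2, yet both values exceeded the median of its library.

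**Figure D2:**
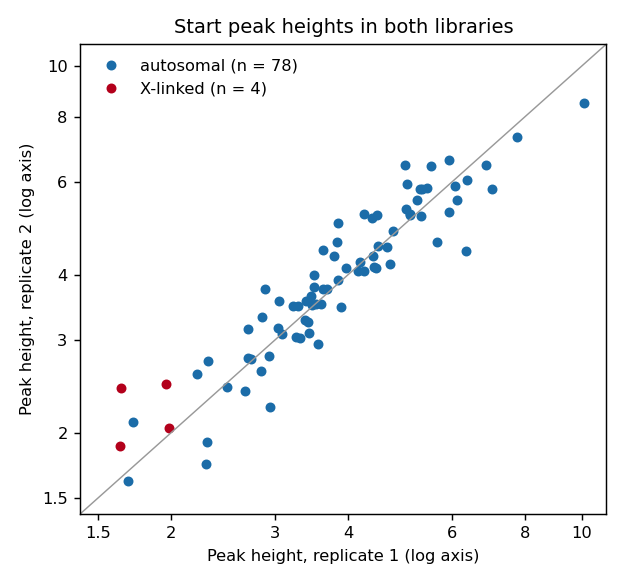
Start peak height in replicate 1 (horizontal, log axis) against replicate 2 (vertical, log axis), 1 point per member, with the line of equal height. The 78 autosomal members follow the line over the whole range, and the 4 X-linked members lie in the lower left corner.

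The lateral stalk of the large subunit recruits translation factors, and its 3 members differed widely. Rplp0, which anchors the stalk, had the highest start peak of all members, 10.1 in replicate 1 and 8.49 in replicate 2 (percentiles 99.97 and 99.79). Rplp1, one of its partners, measured 3.49 and 3.99. Rplp2, the other, measured 3.05 and 3.55. Against the members' medians of 3.73 and 3.95, Rplp1 lay below in replicate 1 and above in replicate 2, and Rplp2 below in both. Proteins that sit together in the ribosome therefore had starts at the top and near or below the middle of the members' range.

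Other large subunit genes with high starts had varied roles. Rpl7a, whose introns host 3 small nucleolar RNAs, measured 7.75 and 7.31. Rpl23 measured 7.03 and 5.81. Rpl27a measured 6.13 and 5.54. Rpl31, at the exit of the tunnel through which the new chain leaves, measured 5.34 and 5.81. All of these values lay above the median of their library. Over the 10 members of the list for the tunnel and its exit, medians were 3.11 and 2.90, near those of all genes. In both libraries 4 of the 10 reached percentile 75, beside 61.6% of the 86 members and 21.4% of all genes. That list also holds low starts: Rpl4, which lines the tunnel, measured 2.30 and 1.92, and Rpl23a, a docking site at the exit, 1.72 and 2.10. Rpl5 and Rpl11, which carry the smallest ribosomal RNA into the large subunit and restrain Mdm2 when ribosome assembly fails, measured 3.89 and 3.46 for Rpl5, and 2.31 and 2.73 for Rpl11.

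Among small subunit genes, Rps28 measured 6.86 and 6.46, the highest of the 33 with a peak in replicate 1. Rps19, the gene most often mutated in Diamond-Blackfan anaemia, measured 6.07 and 5.91. Its peak lay wholly upstream of its RefSeq start, from -591 to -352 bases in replicate 1 and from -591 to -152 in replicate 2. Rps12 measured 5.53 and 6.45, and Rps3a1 5.44 and 5.84. Each of these stood at or above percentile 95.7 in both libraries. The 4 genes listed for the mRNA channel and decoding, Rps2, Rps3, Rps15 and Rps23, were closer to the middle, from 3.08 to 4.18 in replicate 1 and from 2.95 to 4.23 in replicate 2. At the low end, Rps26, which contacts mRNA at the exit of the channel, measured 2.29 and 1.74. Taken by subunit, medians were 3.68 and 3.76 for the 49 large subunit members with a peak and 3.78 and 4.06 for the 33 small subunit members, with wide overlap. The 18 genes listed for Diamond-Blackfan anaemia, a failure of red cell formation, had medians of 4.08 and 3.92. All 18 had a start peak in both libraries, as did all 77 core genes.

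The lowest starts included every X-linked member. Rps4x, a small subunit protein, measured 1.63 and 1.88. Rpl10, which completes the large subunit late in its assembly, measured 1.64 and 2.43. Rpl36a measured 1.96 and 2.47, and Rpl39, in the exit tunnel, 1.98 and 2.04. Counted from the lowest of 82, Rps4x ranked 1 and 3, Rpl10 2 and 9, Rpl36a 5 and 11 and Rpl39 6 and 5, so all 4 stood among the lowest 11 in both libraries. The ratio of the median X-linked to the median autosomal member was 0.470 in replicate 1 and 0.549 in replicate 2 (0.510 ± 0.0564, SD, n = 2). Over all other protein-coding genes with a start peak the same ratio was 0.491 and 0.523 (0.507 ± 0.0226, SD, n = 2), so the X-linked ribosomal protein genes differed from the autosomal ones by about as much as other X-linked genes did. These animals are male and carry a single X chromosome. The part of copy number in the ratio was not tested. Autosomal Rpl6, a large subunit protein, was as low, at 1.69 and 1.62.

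Paralogs fell into an open set and a closed set. In 3 of the 4 open pairs the paralog had the higher start in both libraries. Rpl36al, an autosomal copy of X-linked Rpl36a, measured 6.36 and 6.04 against 1.96 and 2.47 for Rpl36a. Rpl22l1 measured 5.94 and 6.62 against 2.73 and 2.76 for Rpl22. Rps27l, a target of p53, measured 3.39 and 3.56 against 2.70 and 3.14 for Rps27. The exception was Rpl7l1, a pre-ribosome protein, at 2.70 and 2.78 against 3.41 and 3.24 for Rpl7. In the first 2 pairs the paralog's lower value was more than 2 times the parent's higher one, while in the Rps27 pair the gap was small in each library. Rpl36al shared its peak with Mgat2, whose opposite start lies at -74, Rpl22l1 with Gm32950 at -100 and Rps27 with Rab13 at -44. The heights of Rpl36al, Rpl22l1 and Rps27 therefore cannot be assigned to the ribosomal protein gene alone.

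In the closed set, Rpl3l is known from striated muscle, Rpl10l and Rpl39l from testis, and Rps27rt is a retrocopy of Rps27. All 4 had 0 footprints within 250 bases of the main start and 0 of the bases within 500 of it with a deposited false discovery rate of at most 0.001 in either library. Their parent genes Rpl3 (5.93 and 5.26), Rpl10, Rpl39 and Rps27 were open. Of markers of other tissues, 0 of 4 testis genes (Prm1, Prm2, Tnp1 and Ldhc) had a start peak in both libraries, beside 56.3% of all protein-coding genes. Of 4 striated muscle genes only Actn3 did, at 0.726 and 0.598. Ckm had a start peak of 2.10 in replicate 1 alone, and Myh7 one of 0.429 in replicate 2 alone. The bladder's own markers were present in part: 5 of 8 urothelial genes (Upk1a, Upk1b, Upk2, Upk3a and Krt7) and 2 of 6 smooth muscle genes (Myh11 and Smtn) had one in both libraries, while Upk3b, Krt5, Trp63, Acta2, Actg2, Des and Cnn1 did not. Krt5 had one of 1.24 in replicate 2 alone.

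**Figure D3:**
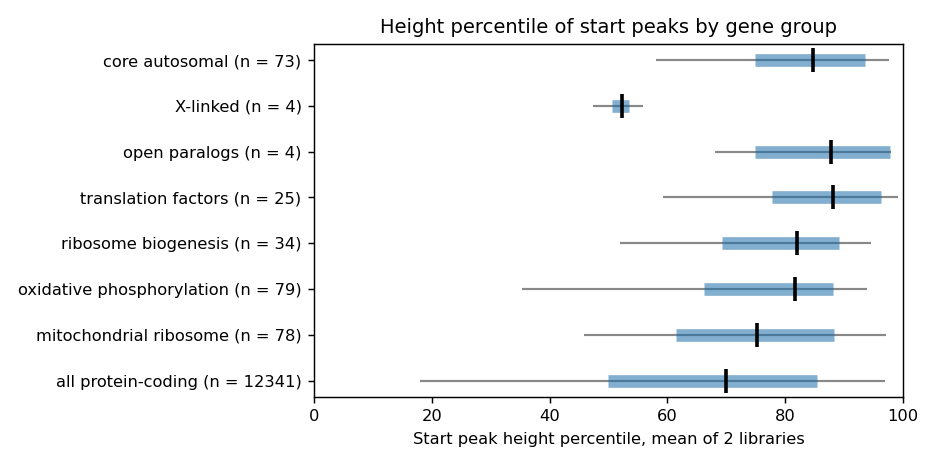
Percentile of the start peak height, averaged over the 2 libraries (horizontal axis), for genes with a start peak in both, by group, with a black mark at the median, a thick bar from the lower to the upper quartile and a thin line from the 5th to the 95th percentile of the group. Core autosomal members centre on 84.7 and the X-linked members on 52.3, while all protein-coding genes centre on 70.0.

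Other genes of protein synthesis gave the setting. Translation factors, 25 of 25 with a start peak in both libraries, had a median percentile of 87.3 in replicate 1 and 87.4 in replicate 2, above the ribosomal protein genes in each library. The 34 ribosome biogenesis genes found, all with a peak, stood at 80.3 and 82.7. Among ribosomal proteins with other symbols, Fau, which encodes Rps30, measured 6.27 and 5.60, and Rack1, a scaffold on the small subunit, 2.98 and 3.05. The mitochondrial ribosomal protein gene Mrpl49 had the same heights as Fau, and a peak shared by a pair of genes cannot be assigned to either. Mitochondrial ribosomal protein genes, 78 of 78 open, stood lower, at 74.8 and 76.1. Nuclear genes of oxidative phosphorylation, 79 of 87 open, stood at 78.1 and 80.5. The differences from the members' medians of 80.7 and 84.2 were the same in sign in both libraries for all 4 lists, and no test was made across genes.

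Start peaks of the members were about as wide as those of other genes and covered the start more often. Median widths were 250 and 260 bases, against 260 and 260 over all genes with a start peak. The widest belonged to Rps27l (560 and 480 bases), Rpl30 (520 and 500) and Rps10 (540 and 460). The strongest peak covered the main GENCODE start, taken from the best supported transcript, in 75.6% of the 82 members in replicate 1 and 82.9% in replicate 2, against 64.7% and 65.1% of other genes. Its centre lay at a median position of -13.5 and -18.5 bases from that start, where negative positions are upstream. For 62 of these members a RefSeq start was given. The peak covered it in 87.1% of them in each library, and covered the GENCODE start of the same genes in 72.6% and 80.6%. Among 9660 other genes the shares were 67.7% and 68.2% for the RefSeq start and 65.3% and 65.8% for the GENCODE start.

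For a few members the peak lay far from the annotated start. Rpl35, of the tunnel exit, had its peak centred 464 bases downstream of the GENCODE start in both libraries, but at -29.5 bases from the RefSeq start, which lies 493 bases farther on. For Rpl4 the centre was at -454.5 and -444.5 bases, nearer to the opposite gene Zwilch, whose start lies at -271. For Rpl10 it was at -417 and -481.5 bases, and the RefSeq start, 4 bases away, did not change this. The strong site of Rpl4 and Rpl10 was therefore not over the start, whereas that of Rpl35 was over 1 of its annotated starts.

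Shared promoters were about as common as elsewhere. A start on the opposite strand lay within 1000 bases upstream for 20 of the 82 members (24.4%), against 21.8% of all genes with a start peak, and 13 of these partners were protein-coding. Rps28 shared its site with Ndufa7, a respiratory chain gene whose start lies at -10, Rpl7a with Med22 at -87, Rpl9 with Lias at -53 and Rpl36al with Mgat2 at -74. A peak over such a pair cannot be assigned to either gene. The 20 members with an opposite start had median heights of 4.37 and 4.52, against 3.54 and 3.70 for the 62 without, and the ranges overlapped.

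Introns of ribosomal protein genes often carry small nucleolar RNAs, which guide the modification of ribosomal RNA. Of the 86 members, 30 (34.9%) hosted at least 1, with 58 in all, against 1.18% of all protein-coding genes. Hosts had median heights of 4.29 and 4.19 and the 52 other members with a peak 3.59 and 3.77. Rpl4 hosted 5 and had one of the lowest peaks, so hosts were found at both ends of the range.

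Footprints were counted within 250 bases of the main start. The members had a median of 5 in each library (means 5.35 and 5.32), against 4 in each for all genes with a start peak (means 4.14 and 4.21). In the highest of the 10 bins of height the medians were 5.50 and 5.00 for 18 members. For 1216 other genes they were 5.00 and 6.00. The means were 5.33 and 5.33 against 5.23 and 5.43, so the libraries differed in direction there. In bins 6 to 9, counted from the lowest, with 46 members, the mean count was higher in the members in both libraries. It was 5.62 and 6.15 against 4.57 and 4.61 in bin 6. In bin 7 it was 6.50 and 5.50 against 4.71 and 4.81. In bin 8 it was 5.67 and 5.50 against 4.98 and 5.03, and in bin 9 5.91 and 5.91 against 5.20 and 5.19. In bin 5, with 7 members, it was lower in both libraries, at 2.71 and 3.86 against 4.37 and 4.39. With 5 members each, bins 3 and 4 were higher in both: 4.6 and 4.8 against 3.44 and 3.46, and 5.2 and 4.2 against 3.86 and 3.96. The higher mean therefore did not hold in every bin. Counts were highest for Rpl5 (8 and 11), Rpl39 (8 and 9), Rps18 (6 and 11) and Rplp2 (7 and 10). Rps10 had 1 and 0, with a RefSeq start 301 bases downstream of its main start. Upstream of the main start lay 59.2% and 56.4% of members' footprints, against 60.8% and 62.2% for all genes.

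Individual footprints were less repeatable than peak heights. The count per gene had a Spearman correlation of 0.438 between the libraries over the 82 members, beside 0.691 over all genes, whose counts span a wider range. Of the members' footprints, 65.1% in replicate 1 and 62.4% in replicate 2 overlapped a footprint of the other library. For the 41 members in the top 3 bins of height, a restriction added after the data were seen, the shares were 72.9% and 70.5%, close to the 73.6% and 71.2% of other genes in those bins. The median footprint of these 41 was 12 bases wide in each library, and that of the other genes 12 and 13.

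Right after the start, footprints covered more of the members' bases than of other genes' bases. The comparison used genes with a RefSeq start in the top 3 bins of height, 29 members and 3008 others, with the same added restriction. The 25 bases from the start on were covered to 32.1% and 31.3% in these members and to 22.4% and 23.3% in the others. In the next bin, from 25 to 49, the values were 16% and 13.7% against 15.7% and 16.3%, and from 50 to 74 they were 6.48% and 9.52% against 13.1% and 13.7%, so the higher cover was limited to the first of these 3 bins. Just upstream of the RefSeq start, from -50 to -26, cover was 40.8% and 45.1% in the members and 33.5% and 35.1% in the others. From -75 to -51 it was 33.8% and 33.2% against 32.0% and 34.1%, and from -100 to -76 37.5% and 39.3% against 28.6% and 30.3%. Farther upstream, from -175 to -151, it was 17.2% and 19.6% against 19.7% and 20.4%.

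Over all 62 members with a RefSeq start, of any height, the first 25 bases were covered to 31.3% and 30.4%, the bin from -50 to -26 to 31.1% and 33.2%, and the bin from -175 to -151 to 11.5% and 12.3%. A footprint lay within 10 bases of the RefSeq start in 62.9% and 51.6% of these 62, against 55.2% and 56.1% of the 3008 others, so that measure had no common direction. Around GENCODE main starts it was 46.3% and 52.4% of 82 members against 54.8% and 54.7% of 3662 others. Of 66 RefSeq starts, 33 lay within 20 bases of the GENCODE main start.

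**Figure D4:**
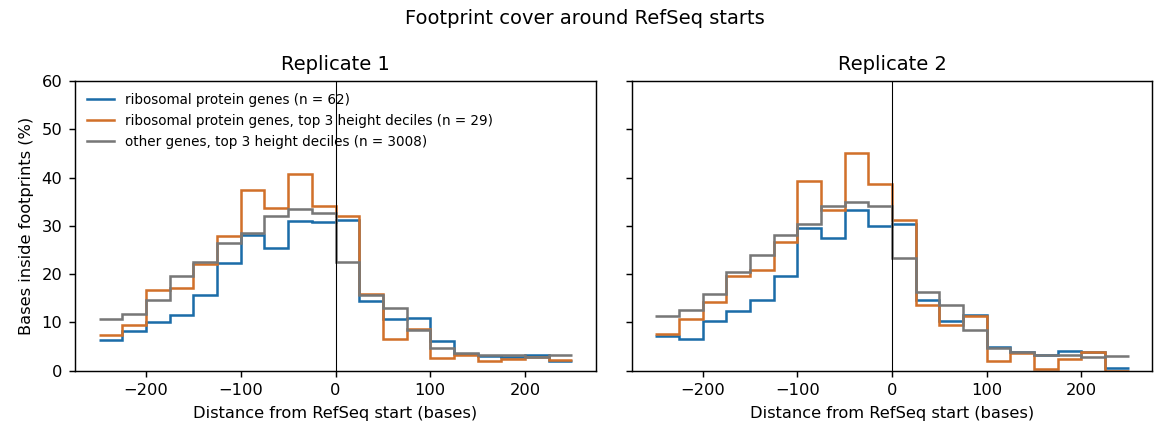
Share of bases inside footprints (vertical axis, percent) in bins of 25 bases against distance from the RefSeq start (horizontal axis), in replicate 1 (left) and replicate 2 (right), for 62 ribosomal protein genes (blue), the 29 of them in the top 3 bins of height (orange) and 3008 other genes of those bins (grey). In the first bin after the start the orange line stands at 32.1% and 31.3% and the grey line at 22.4% and 23.3%.

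Promoters of the members were searched on both strands for consensus words in a window of 250 bases before and 50 bases from the main start on, with positions counted from 0 at the start base. Of the 11 words searched, the one with the largest ratio of members to all promoters was TCGCGAGA. It was found in 14 of 86 members (16.3%, exact Clopper-Pearson 95% interval 9.20 to 25.8%), against 1.36% of all protein-coding promoters of this length, 3.90% of other genes in the top 3 bins of height and 2.56% of mitochondrial ribosomal protein genes. With its reverse complement the word forms a palindrome of 10 bases, which BANP and Kaiso are known to recognise, and the palindrome itself was found in 7 of 86 members (8.14%) against 0.593% of all promoters. A whole palindrome holds the word on each strand and counts as 2 matches. Such a match is a description of the letters and not a bound site.

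The sites below are shown because they fell inside footprints, extended by 5 bases, of both libraries. They are from RefSeq promoters of GRCm38.p6, written 5′ to 3′ on the gene's strand with the word or palindrome in capitals, and positions count from 0 at the RefSeq start base. They lie at chr17:28328526-28328551 (Rpl10a, plus strand), chr2:32961650-32961675 (Rpl12, plus), chr11:68901532-68901557 (Rpl26, plus), chr2:26910747-26910770 (Rpl7a, plus), chr7:118116198-118116221 (Rps15a, minus), chr7:24884576-24884601 (Rps19, plus), chr17:33824546-33824571 (Rps28, minus) and chr4:86857401-86857426 (Rps6, minus).
Rpl10a: cgggcaacTCTCGCGAGAacgcgggc
Rpl12: ccagcggtTCTCGCGAGAgctgagct
Rpl26: tccgagacTCTCGCGAGAtctcgcgg
Rpl7a: gcgcctgcTCTCGCGAtatctgcg
Rps15a: ccatgaagTCTCGCGAtagcgctt
Rps19: ctccgaaaTCTCGCGAGActcgacgc
Rps28: gcgtgcggTCTCGCGAGAgcgaaagt
Rps6: ccggctgtTCTCGCGAGAacttagag

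Each of the sites shown lay within 66 bases upstream of the RefSeq start or reached over it, the farthest being Rps15a, from -66 to -59, and the nearest Rps28, from -1 to 8. The match of Rpl35, not shown, lay from -189 to -182. That of Rps19, from -8 to 1, lay outside the peak that gave its height in each library. Open members held 21 matches, of which 61.9% in replicate 1 and 81.0% in replicate 2 lay inside an extended footprint, where 29.2% and 29.96% of all promoter bases did. In other genes of the top 3 bins the word was in footprints in 77.4% and 76.5% of 221 matches, so the members did not differ in the same direction in both libraries. The 14 members with the word had median heights of 5.16 and 5.69, against 3.54 and 3.70 for the 68 without. Other open genes with the word, 257 in all, had medians of 3.98 and 3.86 against 2.97 and 2.88. Among members the word also occurred at low starts, such as Rpl4 and Rpl23a.

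Common promoter words gave a different picture. The ETS core CCGGAAG was found in 33.7% of members, against 11.2% of all promoters and 22.2% of other genes in the top 3 bins, and in 37.2% of mitochondrial ribosomal protein genes. The YY1 core ATGGCG was found in 26.7%, against 10.7%, 17.8% and 32.1% in the same 3 groups. Both words were therefore at least as common in the mitochondrial as in the cytosolic family. GGGCGG, the core of SP and KLF sites, was found in 53.5% of members, above the 45.4% of all promoters but below the 75.6% of other genes in the top 3 bins. The members with an open start also had less G and C, with a median of 56.3% against 61.0% of other open genes, and a higher ratio of observed to expected CpG, 0.855 against 0.770.

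Rarer words were also found. The cAMP response word TGACGTNA occurred in 10.5% of members, 3.77% of all promoters and 8.08% of other genes in the top 3 bins, and the printed promoter of Rpl23 holds it inside a footprint shared by both libraries. The ZNF143 word occurred in 10.5%, 2.84% and 4.86% of the same groups. CCAAT was found in 29.1%, 38.5% and 46.0%, and CACGTG in 11.6%, 7.71% and 10.98%. GCATGC, most of the NRF1 site, was found in 11.6%, 8.18% and 13.03%, so members were above all promoters and below other high starts. The AP-1 word TGANTCA occurred in 5.81%, 6.79% and 3.93%, with the opposite order. Of its 5 matches 0 lay in a footprint in either library, where 20 in replicate 1 and 24 in replicate 2 of 150 matches did in the other genes of the top 3 bins. These groups differ in height, since 41 of the 82 open members were in the top 3 bins. With 86 promoters, intervals are wide: 4.90 to 18.9% for the cAMP response word and 1.91 to 13.05% for the AP-1 word.

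**Figure D5:**
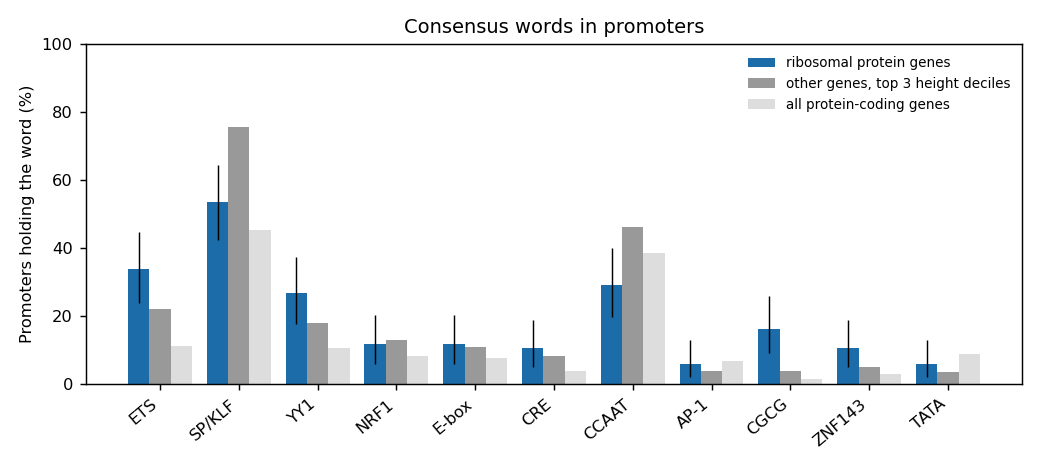
Share of promoters holding each consensus word (vertical axis, percent) for the 86 ribosomal protein genes (blue, with exact 95% intervals that cover counting error only), other genes in the top 3 bins of height (grey) and all 21938 protein-coding genes (light grey), where CGCG stands for the 8-base word. For that word the blue bar stands at 16.3% against 3.90% and 1.36%, while for SP/KLF it stands below the dark grey bar.

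TATAAA, searched on the gene's strand alone, occurred in 5 members (5.81%), against 8.78% of all promoters but 4.16% of open genes and 3.58% of other genes in the top 3 bins, and 4 of the 5 matches lay downstream of the GENCODE start. In Rplp0 it lay from 17 to 22 bases after the start, inside the last capitals of the printed promoter, and was in a footprint in both libraries. In Rpl22l1 it lay from 44 to 49 bases after the GENCODE start, which is upstream of the RefSeq start, 72 bases farther on. In both genes the word, which in a classic promoter lies before the start, was thus found after the GENCODE start.

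Starts of the members carried more pyrimidines than those of all protein-coding genes. At the RefSeq start, 21 of 66 members (31.8%) had a C, against 14.0% of all genes. A C followed without a break by pyrimidines, a run of at least 5 in all, was found in 13 of 66 (19.7%), against 2.18% of all genes and 0 of 69 mitochondrial ribosomal protein genes. At GENCODE starts the share was 12.8% against 2.26% of all genes and 5.13% of 78 mitochondrial ribosomal protein genes. To allow for starts placed a few bases off, longer windows were searched as well: 31.8% of the members had a run of at least 8 pyrimidines within 5 bases before to 15 bases after the RefSeq start, against 6.81% of all genes. Translation factors shared part of this. At the RefSeq starts of 19 of them, the shares with a C, the tract and the run of 8 were 21.1%, 10.5% and 21.1%. At the GENCODE starts of 25 they were 32%, 8% and 24%, beside 30.2%, 12.8% and 27.9% of the 86 members.

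The starts below show this tract in genes with high, middling and absent peaks. The run is in capitals, its first letter is the RefSeq start, and 8 bases before it are shown. They lie at chr14:18270971-18270994 (Rpl15, minus strand), chr9:120571509-120571532 (Rpl14, plus), chr4:86857352-86857375 (Rps6, minus), chr17:27635229-27635252 (Rps10, minus), chr3:90213633-90213656 (Rps27, minus) and chr9:114982724-114982747 (Rps27rt, minus), in GRCm38.p6 from RefSeq.
Rpl15: aaagccttCTTCCTTTCCTCTggc
Rpl14: ccctctctCTTCTCgctgagcgcc
Rps6: agtcgggcCTCTTTTTCgtgacgc
Rps10: gcacgcccCTTCCTTTCCagcctc
Rps27: ctttcgctCCTTTCCggcggtgac
Rps27rt: atcccttgCTTTCCggcggtgacg

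Rpl14 measured 5.02 and 5.33, Rpl15 4.48 and 5.19, and Rps6, the small subunit protein phosphorylated on mTOR signalling, 3.63 and 4.45. Rps10 measured 2.66 and 2.40. Rps27 and its retrocopy Rps27rt share the run CTTTCC and the letters after it, yet Rps27 measured 2.70 and 3.14 and Rps27rt had no peak. A pyrimidine start was therefore present at both high and closed starts. Of the 13 members with the tract, closed Rps27rt included, a footprint lay within 10 bases of the start in 6 in replicate 1 and in 2 in replicate 2, beside the 62.9% and 51.6% given above for all 62 open members with a RefSeq start.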

How the data were processed

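DNase-seq of 2 bladder libraries was analysed from the deposited lists. The peak height is a signal that the authors deposited per peak, and its values step by 0.0113 (replicate 1) and 0.00893 (replicate 2), so replicate 2 was about 1.27 times deeper if 1 step is 1 read, and the absolute depth is unknown. Replicates were not pooled and alignments were to mm10, per the text deposited with each library. Which aligner and callers were used is not given in the sources used here. False discovery rates, as deposited, are adjusted p-values, and every deposited footprint has the value 0.01, taken here as an upper limit for a p-value. The shorter peak lists held 38674 and 47661 peaks and the footprint lists 140919 and 167442 footprints.

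Starts came from GENCODE M21 and 66 of 86 members matched a RefSeq promoter, each identical to the genome at its coordinates. Overlaps, percentiles among 19588 and 20332 start peaks, word searches and figures were made with Python 3.11.15, pandas 2.3.3, NumPy 2.4.6, SciPy 1.17.1 and matplotlib 3.10.9. Only the overlap lookup, the strongest peaks it returns and reverse complements were tested on made-up data with known answers. No symbol ends exactly in -ps, so the 6 with -ps and a number were left out. Named genes were the 12 highest and 8 lowest by mean percentile, those with no peak, the 3 extremes in library difference, width, footprints (4 with ties) and distance, and the stalk, X-linked and paralog lists. Values of some single genes are not reported here. Genes named for a word, a tract, a shared promoter or a role were chosen after their values were seen, as were the tissue markers. The members and lists were chosen with earlier results of these data known. Descriptions name different males but the donor label is shared, so the spread between libraries may be in part technical. Intervals cover counting error only.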

Additional observations from a re-analysis of the deposited data

How the results depend on the processing

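The count of 82 members with a start peak in both libraries was also found with the longer peak list, the higher 50% of the peaks, start windows of 250 or 1000 bases, the main start alone, and names with -ps kept. It was 77 when the peaks of the libraries had to overlap over 50% of each and 77 of 77 with core proteins alone. The median percentile was 86.2 with the longer list and 73.5 with the higher 50% of the peaks, against 82.5, since each list ranks the same peaks among others. Footprints per start had a median of 4 in windows of 150 bases and 6 in windows of 500 bases, against 5, as a wider window holds more. The upstream share of footprints was 62.1% from the RefSeq start against 57.8%. The AP-1 word fell to a share of 0 in the window from 100 bases before to 50 after the start, against 5.81% in the longer one. The share for TCGCGAGA was 16.7% in RefSeq promoters and 14.0% in that shorter window. Without replicate 1 or without replicate 2, the count stayed at 82, the median percentile was 80.7 to 84.2, the width 250 to 260 bases, the footprints 5 and 5, and the upstream share 56.4 to 59.2%. No paired analysis was possible because there is 1 group and no comparison between groups. Depth is unknown, so a missing footprint is no measure of absence.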
